A study of Homo sapiens with 3 samples.

Results

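Transcripts of 36 genes of glycolysis and the hypoxia response were followed in PC3-Luc cells whose CTHRC1 had been lowered with 2 short hairpins. The 36 genes were taken by symbol from the 21726 genes of the count table, and all 36 have a row there. They comprise 4 glucose and lactate transporters, 9 upper and 8 lower glycolytic enzymes, 3 regulators of flux, 3 genes of oxygen sensing and 9 other hypoxia response genes. PC3 is a prostate adenocarcinoma cell line, and every line here carries a luciferase gene from pMSCV-luc. The groups were a control hairpin line (shCtrl), a line with the CTHRC1 hairpin sh718 and a line with sh720. Each was grown for 24 h in 6-well plates and has 3 libraries. No source used here says whether a line is a pool or 1 clone, or whether its libraries came from separate cultures, so p-values measure only the spread between libraries, which may be technical.

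Glycolysis turns glucose into pyruvate in the cytosol. Cells import glucose through SLC2A transporters, trap it with a hexokinase, split it after the phosphofructokinase step, and recover ATP at the PGK1 and PKM steps. Lactate dehydrogenase then reduces pyruvate to lactate, which leaves through SLC16A transporters. When oxygen is low, prolyl hydroxylases such as EGLN1 and EGLN3 no longer mark HIF1A for destruction, and HIF1 raises many of these genes through short motifs in their regulatory DNA. HIF1A itself is controlled mainly as a protein, so its transcript level says little about its activity.

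The libraries held 883663 to 1108960 counts each. CTHRC1 was lower with each hairpin. Its log2 change was -5.91 with sh718 (SE 0.31, adjusted p 1.17e-25 by edgeR), and with sh720 it was -2.86 (SE 0.19, adjusted p 1.19e-19). The sh718 line stood apart on principal component 1 (38.8% of variance), where its libraries scored 29.5 to 30.7 against -19.0 to -11.4 for the other 6. On component 2 (16.8%) control lay at 16.0 to 19.6, sh720 at -16.5 to -15.3 and sh718 at -2.57 to -2.18. All 5 general epithelial markers had counts, against 3 of 8 luminal androgen-responsive markers. Of the 4 epithelial markers tested, KRT19 rose (0.39) and EPCAM fell (-1.39) in sh718. KRT8 (0.46) and KRT18 (0.22) rose in sh720. The edgeR shares of all tested genes were 9.56% higher and 10.8% lower in sh718, and 3.43% higher in sh720. CDH1, the other epithelial marker, had 15 counts in all. Of 7 fibroblast markers 4 had counts in each line, at a summed level of at most 8.33 CPM. Immediate early and heat shock genes, a possible sign of handling, differed between lines in their sum but not all in 1 direction. Their summed level was 538 to 571 CPM in control, 811 to 879 in sh718 and 448 to 454 in sh720. Of 7 tested, 4 rose in sh718 (JUN, HSPA1A, HSPH1 and DNAJB1), where 9.56% of all tested genes were called higher. HSPA1B lay at -0.56 there and was not called. In sh720 3 fell (HSPA1A, HSPA1B and HSPH1), where 3.42% of all tested genes were called lower. DESeq2 called 3 higher in sh718 and 1 lower in sh720. JUNB and ATF3 were not called, and FOS, FOSB and EGR1 had 7, 4 and 1 counts in all. Of 8 leukocyte and endothelial markers, 1 had counts in control and 2 in each hairpin line. Their summed level was 21.4 to 25.9 CPM in control, 47.7 to 51.9 in sh718 and 15.4 to 32.2 in sh720. That sum is in effect the level of PECAM1, which had 266 counts over all libraries against 6 for PTPRC. PECAM1 rose by 1.03 in sh718 (adjusted p 2.63e-04 by edgeR) and was not called in sh720 (-0.28). The part of these marker and handling lists in the changes below was not tested. In bulk RNA, fewer cells that express a gene and less RNA per cell cannot be told apart.

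The promoters of 4 genes are printed first, as examples. PGK1, BNIP3 and ENO1 rose with each hairpin, and LDHA rose with sh720 and was not called with sh718. Each window runs from 250 bases before to 50 bases after the RefSeq start (GRCh38.p14), 5′ to 3′ on the strand of the gene. Capitals mark ACGTG or GCGTG on either strand, the core letters of the HIF motif. Where both ACGTG strands overlap they form CACGTG, which is counted as a match on each strand.
PGK1 promoter, chrX:78103998-78104297, plus strand: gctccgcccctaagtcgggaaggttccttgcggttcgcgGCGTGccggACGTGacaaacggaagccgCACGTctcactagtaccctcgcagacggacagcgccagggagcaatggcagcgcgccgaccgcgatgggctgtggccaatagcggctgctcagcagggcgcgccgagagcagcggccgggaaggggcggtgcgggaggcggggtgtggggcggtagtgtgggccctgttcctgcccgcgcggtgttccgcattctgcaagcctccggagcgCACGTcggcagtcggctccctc
BNIP3 promoter, chr10:131981874-131982173, minus strand: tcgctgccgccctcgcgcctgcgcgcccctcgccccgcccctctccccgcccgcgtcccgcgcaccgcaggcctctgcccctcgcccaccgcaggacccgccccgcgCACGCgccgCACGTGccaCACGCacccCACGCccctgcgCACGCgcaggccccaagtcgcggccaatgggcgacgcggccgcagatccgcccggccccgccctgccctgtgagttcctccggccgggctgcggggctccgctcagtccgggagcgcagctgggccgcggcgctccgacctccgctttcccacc
ENO1 promoter, chr1:8878637-8878936, minus strand: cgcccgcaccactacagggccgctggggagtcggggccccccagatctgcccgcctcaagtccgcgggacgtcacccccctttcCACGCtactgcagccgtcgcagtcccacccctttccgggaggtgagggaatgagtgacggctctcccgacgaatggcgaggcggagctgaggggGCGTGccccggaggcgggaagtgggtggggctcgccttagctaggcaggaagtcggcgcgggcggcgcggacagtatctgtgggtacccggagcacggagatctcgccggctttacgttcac
LDHA promoter, chr11:18394313-18394612, plus strand: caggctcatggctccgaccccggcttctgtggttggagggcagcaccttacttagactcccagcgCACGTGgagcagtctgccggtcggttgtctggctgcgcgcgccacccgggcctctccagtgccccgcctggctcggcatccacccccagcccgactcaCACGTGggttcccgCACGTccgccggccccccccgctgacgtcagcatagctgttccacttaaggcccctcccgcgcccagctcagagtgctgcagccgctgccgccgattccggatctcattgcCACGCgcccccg
The PGK1 window holds 4 matches, 3 of them between 211 and 183 bases before the start. BNIP3 holds 6 within a run from 143 to 104 bases before the start, LDHA holds 6 and ENO1 holds 2. The other genes called higher with each hairpin hold fewer in their first windows. SLC16A3 and TPI1 hold 0 there, and PFKL, ENO2 and PKM hold 1 each. Some genes have further windows, at other listed starts. SLC16A3 has 5 windows, of which window 2 holds 2 matches, window 4 holds 3 and window 5 holds 1. TPI1 has 2 windows, and window 2 holds 2 matches. The window of GAPDH, which fell in sh718, holds 2. Whether the number of matches goes with the changes was not tested. A window was found for 32 of the 36 genes, and the first listed window of 24 of them (75%) holds a match. Over first windows of all symbols the share was 48.4%, and over those of the other genes tested here 65.4%. For ACGTG alone the shares were 43.8%, 21.6% and 27.7%. A match is a run of letters and not a shown binding site.

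Levels are CPM, the counts of a gene relative to the size of its library, scaled by TMM factors. A gene was tested when its counts over the 9 libraries came to at least 60. It was called higher or lower at an adjusted p under 0.05 in edgeR's quasi-likelihood test, adjusted over all 9556 genes tested. Of the 36 genes, 29 met the minimum, and every count of called genes below covers those 29. The lowest of them, ANGPTL4, had 61 counts, and the highest of the 7 below the minimum, ALDOC, had 20.

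In sh718 against control, 18 of the 29 genes rose and 1 fell, where 9.56% of all tested genes were called higher and 10.8% lower (20.4% in either direction). Their median change was 0.56 on the log2 scale, and that of all tested genes was 0.00. In sh720 against control, 9 rose and 2 fell, where 3.43% of all tested genes were called higher and 3.42% lower (6.85% in either direction), and the median was 0.23 against 0.00. These comparisons use the same control libraries. All sh718 libraries lay above all control libraries for 17 of the 29 genes and below them for 2, where 16.3% and 17.1% of all tested genes did so. For sh720 the counts were 12 above and 3 below, where the shares of all tested genes were 11.6% and 11.9%. The genes were picked with earlier results of these data known, so the counts describe them and are no independent support for a direction.

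**Figure D1:**
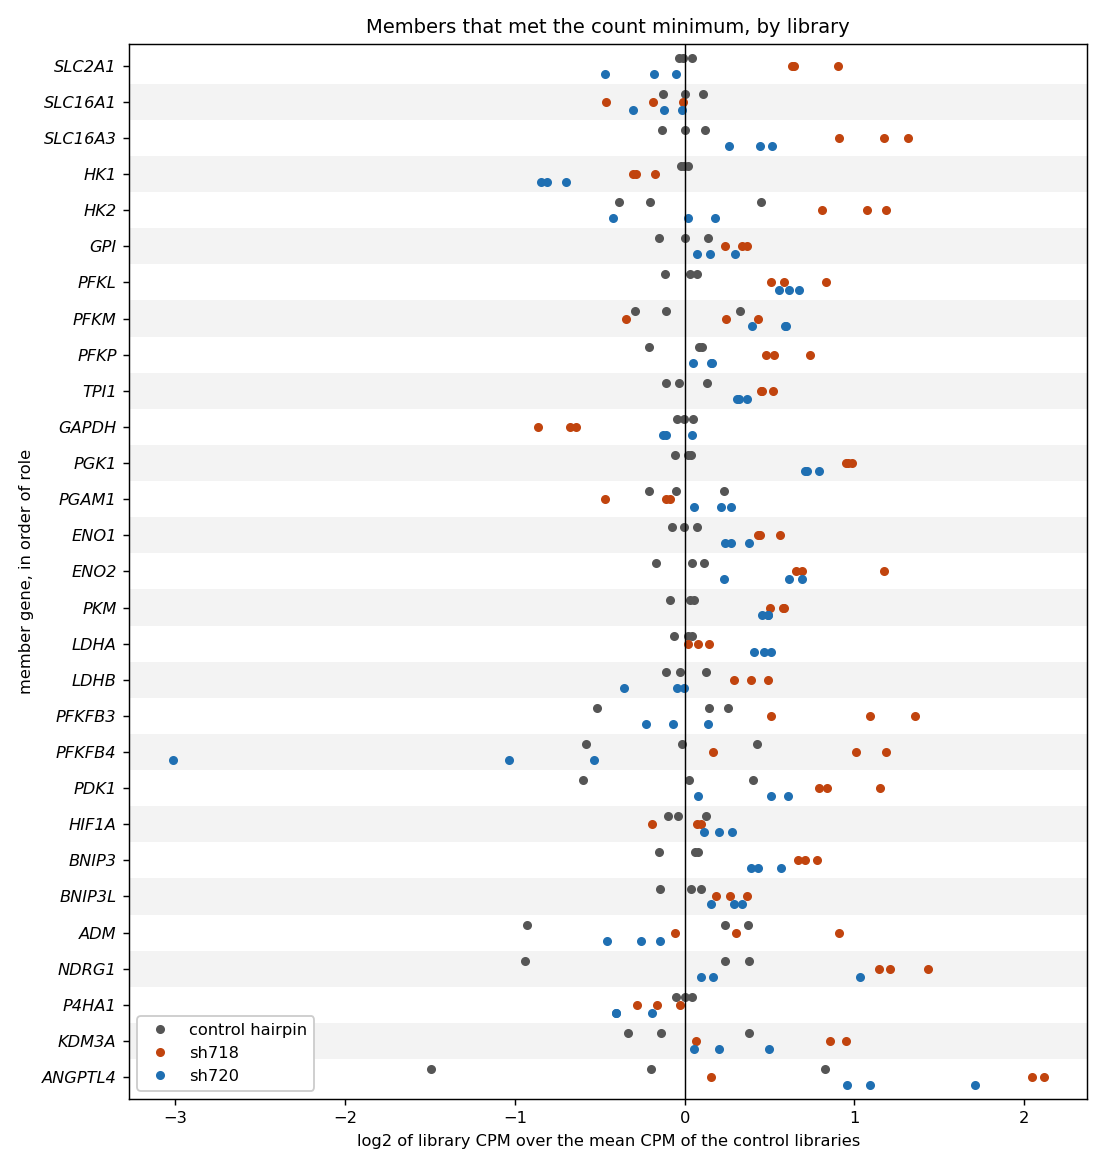
Each point is 1 library. The horizontal axis gives the log2 of its TMM-scaled CPM over the mean of the control libraries, and rows are the 29 genes that met the count minimum. The sh718 points lie right of all control points for 17 genes and the sh720 points for 12, while GAPDH and HK1 in sh718, and SLC2A1, HK1 and P4HA1 in sh720, lie left of all control points.

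Transporters. SLC16A3, the lactate exporter typical of glycolytic cells (chromosome 17, 82228397 to 82261129), had 91.2, 99.2 and 83.3 CPM in the control libraries, 206, 171 and 227 in sh718, and 131, 109 and 124 in sh720. Every sh718 library was above every sh720 library, and each of those above every control library. It rose by 1.15 in sh718 (SE 0.12, adjusted p 1.58e-11) and by 0.42 in sh720 (SE 0.13, adjusted p 0.0373). The sh720 call ended in DESeq2, with no count filter, with the GC and length trend removed, or without control library 1 or 3 or sh720 library 1 or 3 (adjusted p 0.0635 to 0.193). SLC2A1, the main basal glucose importer, had 60.8, 59.8 and 62.9 CPM in control, 95.4, 94.7 and 114.5 in sh718, and 44.2, 54.1 and 59.1 in sh720. It rose by 0.73 in sh718 (SE 0.14, adjusted p 6.46e-05). In sh720 its value was -0.22 (SE 0.16, adjusted p 0.509), although all 3 libraries lay below the control range. SLC16A1, another monocarboxylate transporter, was called in no comparison and held 91.9 to 136.9 CPM over the 9 libraries. SLC2A3, the high-affinity glucose importer, had 1 count in all.

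Hexokinases trap glucose in the cell, and the pair of hexokinase genes did not share a pattern. HK2, the hypoxia-inducible form (chromosome 2, 74833981 to 74893359), had 15.8, 24.8 and 13.9 CPM in control, 31.8, 41.3 and 38.2 in sh718, and 20.5, 13.5 and 18.4 in sh720. Only the sh718 libraries stood clear of control, and the change was 1.06 (SE 0.25, adjusted p 0.00104) against -0.03 (SE 0.29, adjusted p 0.975) in sh720. HK1, the broadly expressed form (chromosome 10, 69269984 to 69401884), had 212, 214 and 217 CPM in control, 176, 190 and 174 in sh718, and 119, 132 and 122 in sh720. All sh720 libraries were below all sh718 libraries, and those were below all control libraries. HK1 fell by 0.79 on the log2 scale in sh720 (SE 0.11, adjusted p 4.99e-08), and its sh718 value was -0.25 (SE 0.10, adjusted p 0.068). Once the trend with GC and length was removed, HK1 was also called lower in sh718 (adjusted p 0.0134).

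Phosphofructokinase commits sugar to glycolysis. PFKL, the liver-type subunit, had 78.8, 81.2 and 71.2 CPM in control, 110, 137 and 115.5 in sh718, and 118, 123 and 113 in sh720, with no overlap between control and either hairpin line. It rose by 0.66 in sh718 (SE 0.13, adjusted p 1.08e-04) and by 0.62 in sh720 (SE 0.13, adjusted p 6.06e-04). PFKP, the platelet-type subunit, rose by 0.58 in sh718 (SE 0.13, adjusted p 3.14e-04) and lay at 0.12 in sh720 (adjusted p 0.704). PFKM, the muscle-type subunit, had 184 counts and was not called, at 0.17 and 0.54 (SE 0.29 and 0.27).

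Of the other upper enzymes, TPI1, which interconverts the triose phosphates, had 606, 513 and 540 CPM in control, 755, 793 and 758 in sh718, and 713, 689 and 685 in sh720. It rose by 0.48 and 0.33 (SE 0.07 for each, adjusted p 2.08e-07 and 6.01e-04). GPI, the glucose phosphate isomerase, rose by 0.31 in sh718 (SE 0.09, adjusted p 0.00719), a call that ended without control library 1 or once the trend with GC and length was removed (adjusted p 0.0862 to 0.255). In sh720 GPI lay at 0.18 (adjusted p 0.278). The aldolase genes could not be tested. ALDOA had 1 count and ALDOC had 5 in control, 4 in sh718 and 11 in sh720.

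Of the 8 lower enzymes, 5 rose and 1 fell in sh718, and 5 rose in sh720. Of all tested genes, 9.56% were called higher and 10.8% lower in sh718, and 3.43% higher in sh720. PGK1, which makes the first ATP of glycolysis (chromosome X, 77910739 to 78129296), had 1351, 1335 and 1266 CPM in control, 2548, 2605 and 2563 in sh718, and 2281, 2157 and 2170 in sh720. The 3 lines did not overlap, and the fold was 1.95 in sh718 (adjusted p 4.25e-22) and 1.67 in sh720 (adjusted p 2.4e-16). ENO1, the main enolase (chromosome 1, 8861000 to 8879250), had 3156, 3330 and 2997 CPM in control, 4294, 4674 and 4263 in sh718, and 4103, 3820 and 3733 in sh720. Its fold was 1.40 in sh718 (adjusted p 6.77e-10) and 1.23 in sh720 (adjusted p 1.41e-04).

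PKM, the pyruvate kinase of most tissues, had 1140, 1159 and 1051 CPM in control, 1581, 1675 and 1671 in sh718, and 1571, 1533 and 1568 in sh720. Control stood apart from each hairpin line. PKM rose by 0.56 and 0.48 (SE 0.06 for each, adjusted p 3.78e-11 and 9.34e-09). ENO2, the enolase of neurons and of hypoxic cells, had 45.0, 47.4 and 38.9 CPM in control, 70.7, 98.8 and 68.9 in sh718, and 51.4, 70.7 and 66.9 in sh720. It rose in sh718 by 0.88 (SE 0.17, adjusted p 4.51e-05) and in sh720 by 0.54 (SE 0.18, adjusted p 0.0477). The sh720 call ended in 8 of 14 alternatives, among them DESeq2, filterByExpr, and the omission of any control library or of sh720 library 2 or 3 (adjusted p 0.0513 to 0.259). ENO2 is also a neuroendocrine marker. Of the 7 markers on that list, 3 had counts in each line, and the other markers with a row (CHGB, SYP and NCAM1) held 2 counts each over all libraries.

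LDHA and LDHB encode the subunits of lactate dehydrogenase, and each rose with 1 hairpin. LDHA (chromosome 11, 18394388 to 18408425) had 2347, 2308 and 2186 CPM in control, 2316, 2521 and 2407 in sh718, and 3243, 3146 and 3030 in sh720. Control and sh718 overlapped, and sh720 was above both. LDHA rose by 0.46 in sh720 (SE 0.06, adjusted p 5.03e-09) and lay at 0.08 in sh718 (SE 0.06, adjusted p 0.334). LDHB, the heart-type subunit, had 249, 224 and 212 CPM in control, 279, 320 and 300 in sh718, and 228, 221.5 and 178 in sh720. LDHB rose by 0.40 in sh718 (SE 0.10, adjusted p 0.00125), and its sh720 value was -0.12 (SE 0.10, adjusted p 0.557).

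GAPDH, which feeds PGK1, was the 1 gene of the 29 that fell in sh718. It had 122, 114 and 117.5 CPM in control, 75.4, 73.6 and 64.6 in sh718, and 121, 109 and 108 in sh720. The sh718 libraries were below all others, at -0.73 (SE 0.13, adjusted p 2.33e-05), and sh720 lay at -0.06 (adjusted p 0.845). GAPDH has many near-identical processed copies in the genome, so its counts are uncertain. The table holds 868 counts on GAPDH and 17 on its 10 listed pseudogenes, and adding these left the call in place. PGAM1, the phosphoglycerate mutase, was not called in either line, at -0.20 and 0.19 (SE 0.22 and 0.21). Its 2 listed pseudogenes held 38 counts beside its own 282.

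Of 3 regulators of flux, 2 rose in sh718 by edgeR, where 9.56% of all tested genes were called higher, and 0 were called by DESeq2. PFKFB3, a bifunctional enzyme that makes the activator of phosphofructokinase, had 14.6, 15.8 and 9.25 CPM in control, 18.9, 28.2 and 33.9 in sh718, and 11.3, 14.6 and 12.6 in sh720. It rose by 1.06 in sh718 (SE 0.29, adjusted p 0.00482) and lay at -0.02 in sh720 (SE 0.34). The call ended in DESeq2 and without control library 3 or sh718 library 3 (adjusted p 0.0565 to 0.0663). PDK1, the kinase that closes the pyruvate dehydrogenase gate to the mitochondrion, rose by 0.93 in sh718 (SE 0.29, adjusted p 0.0134) and lay at 0.41 in sh720 (SE 0.31, adjusted p 0.52). Its call ended in DESeq2 and without control library 1 or sh718 library 2 (adjusted p 0.0768 to 0.103). PFKFB4, an isozyme of PFKFB3 with 78 counts, had 5.63, 11.3 and 8.33 CPM in control, 9.43, 19.1 and 17.0 in sh718, and 4.11, 1.04 and 5.82 in sh720. Neither value against control was called (0.87 and -1.15, adjusted p 0.0903 and 0.186), though the former was without sh718 library 1 (adjusted p 0.0366).

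Of the 3 oxygen sensing genes, 1 met the count minimum. HIF1A, the oxygen-regulated subunit of HIF1, had 509, 490.5 and 573 CPM in control, 550, 459.5 and 560 in sh718, and 637, 603 and 566 in sh720. Its values were -0.01 in sh718 (SE 0.08, adjusted p 0.957) and, against the same control, 0.20 in sh720 (SE 0.08, adjusted p 0.12). EGLN1, the main HIF prolyl hydroxylase, had 5 counts in control, 2 in sh718 and 3 in sh720. EGLN3, a hydroxylase that is itself HIF-induced, had 8 counts in sh718, spread over its 3 libraries, and none in control or sh720. With 3 counts set as the limit that the control count of 0 allows, and the 8 taken as exact, the ratio was 2.68. That ratio leaves out the counting spread of the 8, so it is not a lower limit, and EGLN3 was not tested.

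Of the 7 tested among the other hypoxia response genes, 4 rose in sh718, and in sh720 1 rose and 1 fell. The shares of all tested genes were 9.56% higher in sh718, and 3.43% higher and 3.42% lower in sh720. BNIP3, a mitophagy receptor (chromosome 10, 131966455 to 131982013), had 223, 193 and 226 CPM in control, 368, 350 and 340 in sh718, and 317.5, 281 and 289 in sh720. The 3 lines did not overlap, with a fold of 1.64 in sh718 (adjusted p 3.17e-09) and 1.38 in sh720 (adjusted p 2.00e-04). Its 3 listed pseudogenes held 100 counts beside its own 2470, and adding them ended neither call. Its relative BNIP3L was called in neither line, at 0.28 and 0.27 (SE 0.11 for each, adjusted p 0.0655 and 0.148), and it was called in sh718 once the trend with GC and length was removed (adjusted p 0.00965). The libraries of each hairpin line nonetheless lay above all control libraries for BNIP3L.

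NDRG1, a stress-responsive growth regulator, had 11.3, 4.51 and 10.2 CPM in control, 20.03, 19.1 and 23.3 in sh718, and 9.25, 17.7 and 9.70 in sh720. It rose by 1.24 in sh718 (SE 0.34, adjusted p 0.00506), a call that ended in DESeq2 and without control library 2 (adjusted p 0.0568 to 0.0575). In sh720 NDRG1 lay at 0.47 (SE 0.38, adjusted p 0.563). ANGPTL4, a secreted inhibitor of lipoprotein lipase, rose by 1.68 in sh718 (SE 0.52, adjusted p 0.0137), from 9 counts in control to 29. In sh720 it lay at 1.26 (SE 0.55, adjusted p 0.177) and was not called, although all sh720 libraries lay above all control libraries. Between the hairpin lines it was not called either (0.42, SE 0.42, adjusted p 0.512). The sh718 and control libraries overlapped, since sh718 library 1 lay at 3.54 CPM beside a control range of 1.13 to 5.63. KDM3A, a histone demethylase, rose by 0.63 in sh718 (SE 0.22, adjusted p 0.029), also with overlapping libraries. In sh720 KDM3A lay at 0.23 (SE 0.23, adjusted p 0.649). The ANGPTL4 call ended in DESeq2 and without control library 2 or 3 or sh718 library 2 or 3 (adjusted p 0.0604 to 0.116). The KDM3A call ended in DESeq2 and without control library 1 or 2 or sh718 library 1 or 3 (0.103 to 0.168).

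P4HA1, a collagen prolyl hydroxylase subunit, went the other way. It had 227.5, 221 and 213 CPM in control, 181.5, 217 and 197 in sh718, and 193, 166 and 167 in sh720. It fell by 0.33 on the log2 scale in sh720 (SE 0.10, adjusted p 0.0333), and sh718 lay at -0.15 (adjusted p 0.329). The sh720 call ended in DESeq2, with no count filter, and without any 1 control library or sh720 library 2 or 3 (adjusted p 0.0529 to 0.152). ADM, a vasodilator peptide gene with 79 counts, was called in neither line (0.43 and -0.30, SE 0.38 and 0.43). CA9, a carbonic anhydrase widely used as a hypoxia marker, had 1 count in control, 2 in sh718 and 7 in sh720. ANKRD37 had 2 counts in all.

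**Figure D2:**
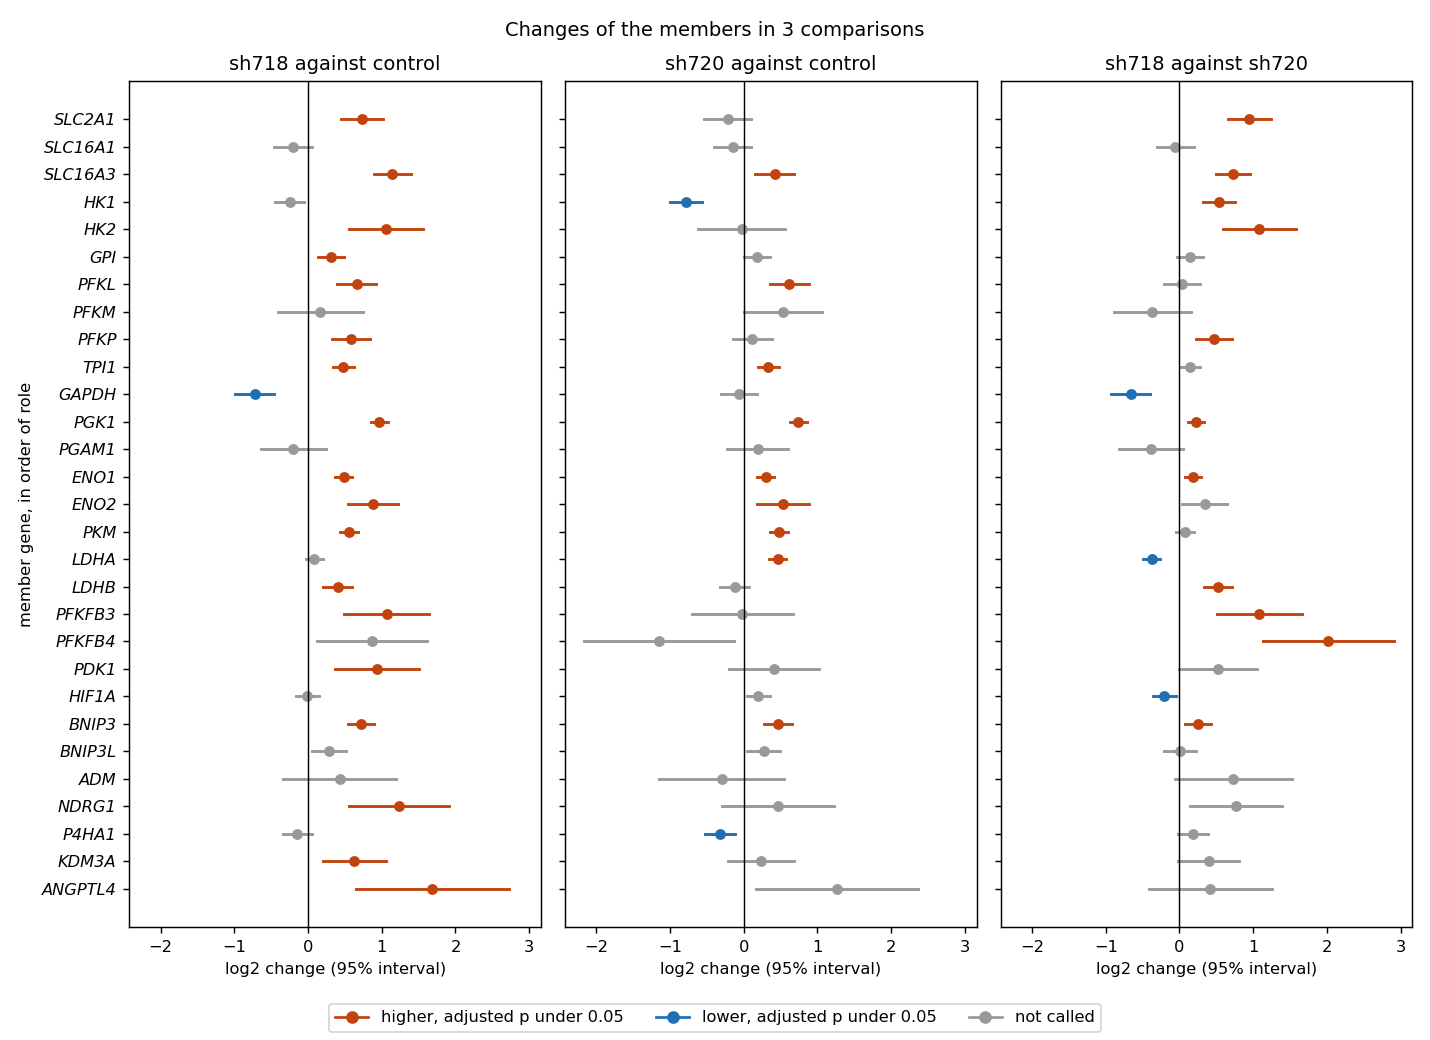
Points are log2 changes of the 29 genes from edgeR, and bars are 95% intervals. Red marks genes called higher and blue genes called lower, 18 and 1 in sh718, 9 and 2 in sh720, and 11 and 3 in sh718 against sh720.

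The hairpin lines were also compared directly, which tests whether their changes differ. Of the 29 genes, 11 were higher and 3 lower in sh718 than in sh720, where 12.3% and 13.0% of all tested genes were called (25.3% in either direction). All sh718 libraries lay above all sh720 libraries for 16 of the 29 genes and below them for 4, where 18.2% and 18.8% of all tested genes did so. The values that passed were positive for the transporters SLC2A1 (0.95, SE 0.15, adjusted p 4.07e-07) and SLC16A3 (0.73, SE 0.12, adjusted p 8.29e-07), and for the hexokinases HK2 (1.08, SE 0.25) and HK1 (0.53, SE 0.11). They were also positive for PFKFB4 (2.02, SE 0.44, adjusted p 2.98e-04) and PFKFB3 (1.08, SE 0.29, adjusted p 0.00311). LDHA (-0.38, SE 0.06, adjusted p 2.91e-07) and GAPDH (-0.66, SE 0.13, adjusted p 8.71e-05) were lower in sh718. For PFKL the difference was 0.04 (95% interval -0.21 to 0.28) and for PKM 0.08 (-0.04 to 0.20), neither of them called.

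Several of these genes lie in chromosome regions whose genes were lower together in a hairpin line. For each gene, the median change of all tested genes within 10 Mb of its start was taken, leaving out the 36 genes themselves. LDHA has 56 such neighbours, with a median of -0.51 in sh718 and 0.09 in sh720. Of these, 22 were called lower in sh718. The LDHA value of 0.08 in sh718 was thus 0.60 above its neighbours, and its 0.46 in sh720 was 0.37 above them. LDHB has 53 neighbours with a median of -0.25 in sh718, and ENO1 has 121 with -0.19. Both rose there.

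The genes that fell in sh720 also have lower neighbours. P4HA1 has 72 neighbours with a median of -0.46 in sh720 and -0.51 in sh718, so its change of -0.33 in sh720 was 0.14 above them. HK1 has 74 neighbours, many of them the same genes, with a median of -0.42 in sh720 and -0.50 in sh718. Its change of -0.79 in sh720 was 0.37 below its neighbours, and its -0.25 in sh718 was 0.24 above them. PFKFB4 on chromosome 3 has 142 neighbours at -0.29 in sh720 and -0.42 in sh718. GAPDH and its chromosome 12 neighbours TPI1 and ENO2 share 57 neighbours, with a median of -0.01 in sh718, so GAPDH fell where TPI1 and ENO2 rose. Across the 29 genes, the median distance above the neighbours was 0.64 in sh718 and 0.23 in sh720. Whether gene copy number differs between the lines was not tested.

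**Figure D3:**
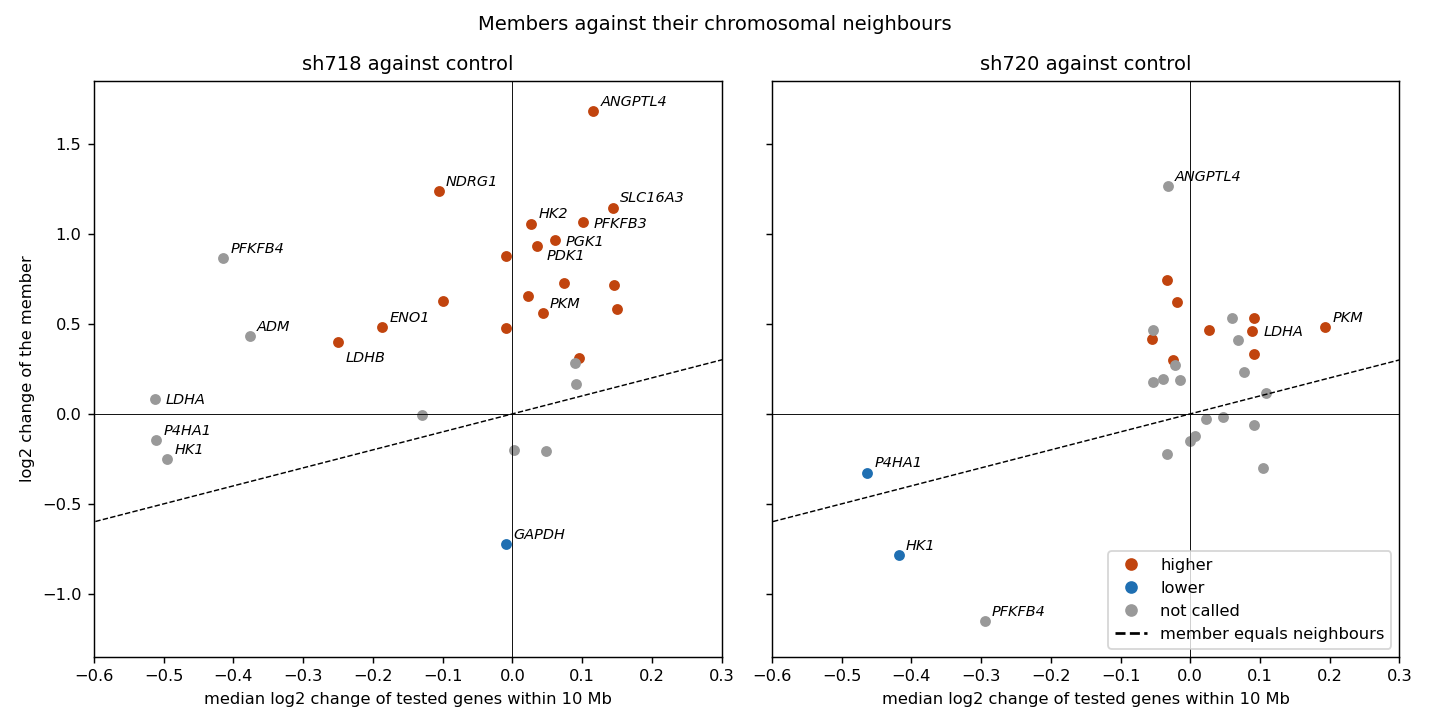
The vertical axis gives the log2 change of each of the 29 genes and the horizontal axis the median log2 change of the other tested genes within 10 Mb, with 1 panel per hairpin line. LDHA, P4HA1 and HK1 sit at the left in sh718 (neighbours -0.51 to -0.50), and P4HA1 and HK1 in sh720 (-0.46 and -0.42). The dashed line marks a change equal to that of the neighbours.

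Other genes of the hypoxia response were read from a list of 45, of which 36 were tested. For this and each list below, the edgeR shares of all tested genes were 9.56% higher and 10.8% lower in sh718. They were 3.43% and 3.42% in sh720. DESeq2 called 447 of the 9556 tested genes higher and 561 lower in sh718. In sh718 13 rose by edgeR and 8 by DESeq2, with a median of 0.22. None fell by either tool or at an unadjusted p under 0.05. The share of all tested genes under that unadjusted threshold was not counted, here or for the lists below. AK4, a mitochondrial adenylate kinase, had 60.4 CPM in control and 117.5 in sh718 (log2 0.96, SE 0.15, adjusted p 3.98e-07). FUT11, a fucosyltransferase gene, rose by 0.95 (SE 0.14, adjusted p 4.08e-07) in a region where its neighbours had a median of -0.52. IGFBP3, which binds insulin-like growth factors, rose by 3.35. In sh720 4 rose by edgeR and 2 by DESeq2, with a median of 0.09. None fell by either tool, and 1 was lower at an unadjusted p under 0.05. They were STC2 (1.18), a secreted glycoprotein, DDIT4 (0.75), an inhibitor of mTORC1, TMEM45A (0.62) and FAM162A (0.34). The neighbours of DDIT4 lay at -0.45 in sh720. STC2 and DDIT4 are also induced by the ATF4 stress response.

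Of 15 other genes of the HIF system, 12 were tested. In sh718 EPAS1, which encodes HIF2 alpha, rose from 17.0 to 29.8 CPM (log2 0.79, SE 0.26, adjusted p 0.022), and DESeq2 did not call it. ELOC, a subunit of the VHL ubiquitin ligase, fell by 0.33 on the log2 scale in sh718. In sh720 none of the 12 was called by edgeR or DESeq2, and 1 was higher and 1 lower at an unadjusted p under 0.05. VHL itself lay at -0.26 and 0.08 and was not called. Of 36 isozymes and accessory genes of glycolysis, 13 were tested. TXNIP, a glucose-responsive inhibitor of glucose uptake, had 216 CPM in control, 290 in sh718 and 346 in sh720. It rose by 0.43 with sh718 (adjusted p 2.63e-04) and by 0.68 with sh720 (adjusted p 2.78e-08). BSG, the chaperone that brings monocarboxylate transporters to the membrane, rose by 0.44 in sh718 and lay at -0.03 in sh720.

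Genes that act downstream of pyruvate were read from the lists of the citric acid cycle and of pyruvate entry into mitochondria. Of 15 tested genes on the citric acid cycle list, 5 fell in sh718 by edgeR and by DESeq2, and 1 rose there by edgeR alone. By edgeR, 9.56% of all tested genes were called higher and 10.8% lower in sh718, and 3.43% and 3.42% in sh720. SDHD, an anchor subunit of succinate dehydrogenase, had 84.3 CPM in control and 9.40 in sh718 (log2 -3.16, SE 0.24, adjusted p 7.5e-18), where its 79 neighbours had a median of -0.40. SDHB (-0.97), MDH1 (-1.097) and the fumarase gene FH (-0.74) fell in sh718 as well, as did SDHA (-0.51). MDH1 encodes the cytosolic malate dehydrogenase. MDH2, which encodes the mitochondrial one, lay at -0.13 in sh718 (adjusted p 0.266 by edgeR) and was not called. The neighbours of SDHB and MDH1 lay at 0.08 and 0.02, and those of FH and SDHA at -0.21 and -0.61. In sh720 none of the 15 was called by edgeR or DESeq2. At an unadjusted p under 0.05, where no share of all tested genes was counted, 3 were lower. Of 11 tested genes of pyruvate entry, 2 rose and 2 fell in sh718 by edgeR and by DESeq2, and in sh720 1 rose and 2 fell by edgeR. PDK2 rose in sh718 and in sh720 (1.02 and 0.87), while PDHB fell (-0.85 and -0.45). MPC2, a subunit of the mitochondrial pyruvate carrier, rose by 0.44 in sh718 (SE 0.11, adjusted p 0.00222). PDP1, a phosphatase of pyruvate dehydrogenase, fell by 0.67 on the log2 scale in sh720. DESeq2 called none of the 11 in sh720. DLAT, the acetyltransferase of pyruvate dehydrogenase, fell by 1.43 on the log2 scale in sh718. The neighbours of PDHB lay at -0.37 in each line and those of DLAT at -0.39 in sh718.

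Of 8 tested genes of the pentose phosphate pathway, 1 rose and 2 fell in sh718 by edgeR, and 1 rose and 1 fell by DESeq2. The edgeR shares of all tested genes in sh718 were 9.56% higher and 10.8% lower. TKT fell by 0.37 and TALDO1 by 0.35 on the log2 scale there. TKT also fell in sh720, by 0.40 on the log2 scale. The neighbours of TKT lay at -0.41 in sh718 and -0.30 in sh720, and those of TALDO1 at -0.30 in sh718. Of 9 tested glycogen genes, 3 rose in sh718 by edgeR and 2 by DESeq2. In sh720 none was called by either tool, and 1 was higher and 1 lower at an unadjusted p under 0.05. Of 3 tested gluconeogenesis genes, PCK2, the mitochondrial carboxykinase that makes phosphoenolpyruvate, moved in opposite directions. Its mean level was 28.2 CPM in control, 12.7 in sh718 and 60.3 in sh720. The changes were -1.15 (adjusted p 0.0013) and 1.102 (adjusted p 1.83e-05).

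**Figure D4:**
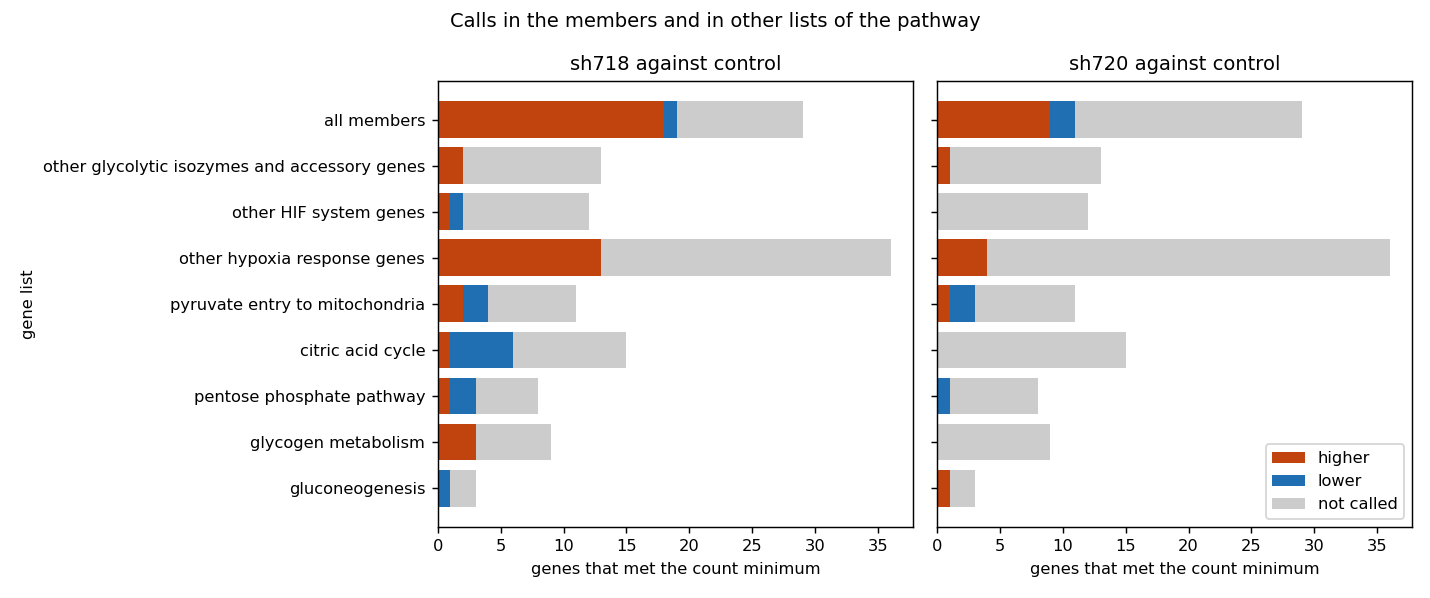
Bars count the tested genes of each list that were called higher, called lower or not called, with 1 panel per hairpin line. The 29 tested genes described above gave 18 higher calls in sh718 and 9 in sh720, and the citric acid cycle list gave 5 lower calls in sh718 and none in sh720. Of all tested genes, 9.56% were called higher and 10.8% lower in sh718, and 3.43% and 3.42% in sh720.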

How the data were processed

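RNA sequencing with single reads of 75 bp was done on 9 libraries, 3 per line, per the labels' protocols. The deposited values are whole-number read counts for each Ensembl gene, not normalized. Trim Galore and GRCh38 are named in the submitters' processing notes. Not given in the sources used here were the aligner, the counting program, its strand setting and its annotation, so overlapping genes and near-identical copies are uncertain. Columns were assigned to lines by the line and number in their names, 3 libraries to each GEO sample.

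Testing covered genes with at least 60 counts in all. edgeR 4.0.16 (R 4.3.3) fitted 1 model of the 3 lines with TMM factors, glmQLFit and glmQLFTest, adjusted by Benjamini-Hochberg over 9556 genes. SE is the log2 change divided by the root of F. The common biological coefficient of variation was 5.89%, and the fit was tested on simulated data. Positions came from GENCODE v29 (21258 of 21726 identifiers) and promoters from RefSeq. Alternatives were DESeq2 1.42.0, RLE factors, other filters, only the 2 lines compared, a replicate block, a GC and length trend (splines with 5 degrees of freedom), pseudogene counts added, and each library left out. The genes and lists were chosen with earlier results of these data known. Genes of the other lists were named by size, at most 4 per direction, ranked by the interval bound nearest 0; some that qualified are not reported here. Libraries of a line differed by more than sampling noise (chi-square per degree of freedom 1.27 to 2.23).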

Additional observations from a re-analysis of the deposited data

Results flagged for a closer look

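These 14 genes had changes that differed between the hairpin lines by the edgeR test of sh718 against sh720, given as log2 values beside the changes against control in sh718 and then sh720. The transporters were SLC2A1 (0.95, from 0.73 and -0.22) and SLC16A3 (0.73, from 1.15 and 0.42). Upper enzymes were HK1 (0.53, from -0.25 and -0.79), HK2 (1.08, from 1.06 and -0.03) and PFKP (0.47, from 0.58 and 0.12). Lower enzymes were PGK1 (0.22, from 0.97 and 0.74), ENO1 (0.18, from 0.48 and 0.30), LDHB (0.52, from 0.40 and -0.12), LDHA (-0.38, from 0.08 and 0.46) and GAPDH (-0.66, from -0.73 and -0.06). Regulators and hypoxia genes were PFKFB3 (1.08, from 1.06 and -0.02), PFKFB4 (2.02, from 0.87 and -1.15), BNIP3 (0.25, from 0.72 and 0.46) and HIF1A (-0.20, from -0.01 and 0.20). For BNIP3, ENO1 and HIF1A the difference was lost under 5, 4 and 7 of 14 alternatives.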

How the results depend on the processing

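Of the 44 calls of the 29 tested genes, 32 held their direction and their side of the threshold under every alternative run, 12 were lost under at least 1, and none reversed. The genes called came to 19 in sh718, 11 in sh720 and 14 between the hairpins, and to 14, 8 and 12 in DESeq2. Leaving out 1 library gave 16 to 19, 8 to 10 and 12 to 14. No pairing by column number was seen: same-numbered libraries had correlations of their deviations of -0.013 to 0.022. With the number as a replicate block the counts were again 19, 11 and 14 and every call was kept. Whether same-numbered libraries were handled together is not known, and this check cannot settle it. BNIP3 (adjusted p 0.0594 to 0.123), ENO1 (0.065 to 0.244) and HIF1A (0.0515 to 0.627) lost their calls between the hairpins. Without sh718 library 2 KDM3A was called there (0.0182), without sh720 library 2 NDRG1 was (0.0214), and P4HA1 was once the trend with GC and length was removed (0.0144). Over all genes, DESeq2 called 447 higher and 561 lower in sh718, 132 and 166 in sh720, and 632 and 661 between the hairpins, against 914 and 1033, 328 and 327, and 1173 and 1246 in edgeR. At 883663 to 1108960 counts per library, genes under 60 counts in all were tested only under the other count filters.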

Other observations

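Some glycolytic genes had few counts, and their place in the annotation differs. ALDOA, with 1 count, shares 42.3% of its exon bases in GENCODE v29 with AC093512.2 on the same strand. LDHB shares 33.4% with AC010197.2 on the same strand and held 2106 counts, against 3 on that gene. CA9 and ANKRD37 share 38.5% and 35.2% with a gene on the other strand and held 10 and 2 counts. EGLN1, EGLN3 and SLC2A3 overlap no annotated exon and held 10, 8 and 1. Whether the counting lowered any of these was not tested.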
